A study of Mus musculus with 8 samples.

Results

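The circadian clock genes described here are 10 genes of the molecular clock, Arntl (also called Bmal1), Clock, Per1, Per2, Per3, Cry1, Cry2, Nr1d1, Nr1d2 and Dbp. They were chosen by name, and each was found in the deposited expression table through the RefSeq accession of its row. All 10 had a row, 1 row each, among the 24625 rows of the table. Expression was measured in lung neutrophils of wild type C57BL/6J mice, 6 to 12 weeks old per the sample labels, 24 h after intratracheal instillation of *Streptococcus pneumoniae* (SP, 4 mice) or phosphate-buffered saline (PBS, 4 mice) given to the left lung in a volume of 2.3 µl for each g of mouse. Cells bound by antibody to Ly6G, which marks mouse neutrophils, were collected from lung digests on magnetic beads, and each preparation was hybridised to 1 Affymetrix Mouse Gene 1.1 ST array. Per the methods, purity was judged on stained cells of the pneumonia samples, where it was high, and no figure is given for the PBS samples. The few other cells seen in the pneumonia samples mostly looked like alveolar macrophages. The methods also report high Ly6G mRNA in all samples. The study's methods give a narrower age range than the labels, lying within it. The mice carried no engineered allele, and the PBS group shared the instillation and cell isolation of the SP group. The hour of day at which the lungs were collected is not given in the sources used here, so an effect of time of day on any value below was not tested.

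The clock is a feedback loop of transcription and translation that runs in most cells, blood and lung cells included. BMAL1 (from Arntl) and CLOCK form a pair that binds E-box sequences and switches on the Per, Cry, Nr1d and Dbp genes. PER and CRY proteins then return to the nucleus and repress that pair, while the REV-ERB nuclear receptors, encoded by Nr1d1 and Nr1d2, repress Arntl by competing with the ROR receptors at RORE sequences. DBP and its relatives act at D-box sequences, which places genes such as Per3 under a further layer of timing. In neutrophils the clock is known to time ageing of the circulating cells, and in macrophages and airway epithelium REV-ERB and BMAL1 are known to restrain inflammatory genes.

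The sequences through which the loop acts could be seen in front of several of the genes. They are shown for Cry1, the clock gene that rose, for Nr1d1 and Per3, which fell most, and for Arntl, whose sequence carries an RORE. Sequences are from RefSeq (mouse assembly GRCm38.p6), read 5′ to 3′ on the strand of the gene, with 250 bases before the annotated start in the first 3 cases and a stretch of 30 bases just after a start for Arntl. Capitals mark an E-box (CACGTG), an E′-box (CACGTT, here read from the other strand as AACGTG), a D-box (TTATGTAA) or an RORE, the binding sequence shared by REV-ERB and ROR.
Cry1, chr10:85185055-85185304, minus strand: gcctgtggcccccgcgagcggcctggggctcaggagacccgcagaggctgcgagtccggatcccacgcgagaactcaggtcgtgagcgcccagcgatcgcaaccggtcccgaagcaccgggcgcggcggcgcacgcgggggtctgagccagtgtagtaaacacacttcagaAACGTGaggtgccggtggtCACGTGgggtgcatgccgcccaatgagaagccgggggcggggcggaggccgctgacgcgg
Nr1d1, chr11:98775378-98775627, minus strand: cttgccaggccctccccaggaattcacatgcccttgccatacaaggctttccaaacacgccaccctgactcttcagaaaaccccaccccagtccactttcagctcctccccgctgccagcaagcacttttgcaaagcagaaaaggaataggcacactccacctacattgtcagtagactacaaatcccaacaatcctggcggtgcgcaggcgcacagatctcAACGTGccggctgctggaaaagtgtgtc
Per3, chr4:151044666-151044915, minus strand: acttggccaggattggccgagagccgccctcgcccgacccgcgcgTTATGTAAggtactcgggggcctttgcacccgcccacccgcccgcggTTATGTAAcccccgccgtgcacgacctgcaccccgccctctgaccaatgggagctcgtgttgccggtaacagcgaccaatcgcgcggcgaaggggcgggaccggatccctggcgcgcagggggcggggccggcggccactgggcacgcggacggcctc
Arntl, chr7:113207527-113207556, plus strand: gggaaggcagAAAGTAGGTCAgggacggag

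These motifs were searched on both strands in windows of 300 bases, from 250 before to 50 after each annotated start, and 9 of the 10 genes had a window in the RefSeq table. An E-box was present for Per1 and Cry1, against 7.15% of all 32851 windows, and an E′-box for Cry1, Cry2 and Nr1d1, against 4.68%. Per3 held 2 D-boxes, whose first bases lie at -205 and -158 relative to the start site, whereas 0.938% of all windows held any. The RORE of Arntl, present in 0.384% of all windows, overlaps the shorter sequence AGGTCA that REV-ERB and ROR bind alone, which was found for Per1, Arntl, Clock and Nr1d2 and in 16.3% of all windows. A match describes the letters of the window only, and no binding was measured. Several genes have more than 1 annotated start, which is why 13 windows stood for 9 genes. Per2 had no entry.

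Pneumonia was accompanied by lower expression of 6 of the 10 clock genes and higher expression of 1. Nr1d1, Per3, Cry2, Nr1d2, Arntl and Clock fell between 2.12-fold and 5.32-fold, and Cry1 rose 4.98-fold. Per1, Per2 and Dbp did not pass the test. Values are log2 expression after robust multi-array averaging, a difference of 1 is 2-fold, and a gene was called at a limma adjusted p of 0.05 or below over all rows. Such a call was common in these data, with 22.6% of all rows called lower in SP and 21.5% called higher. That is 5554 and 5306 rows, a split that turned to 4036 and 14219 when each array was centred on its median. Of the called clock genes all 7 also passed 2-fold, which 11.3% of rows did downward and 6.37% upward. Their PBS and SP values did not overlap, as was the case for 49.0% of all rows. The median difference of the 10 clock genes was -1.17, beside 0.10 for all rows.

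**Figure D1:**
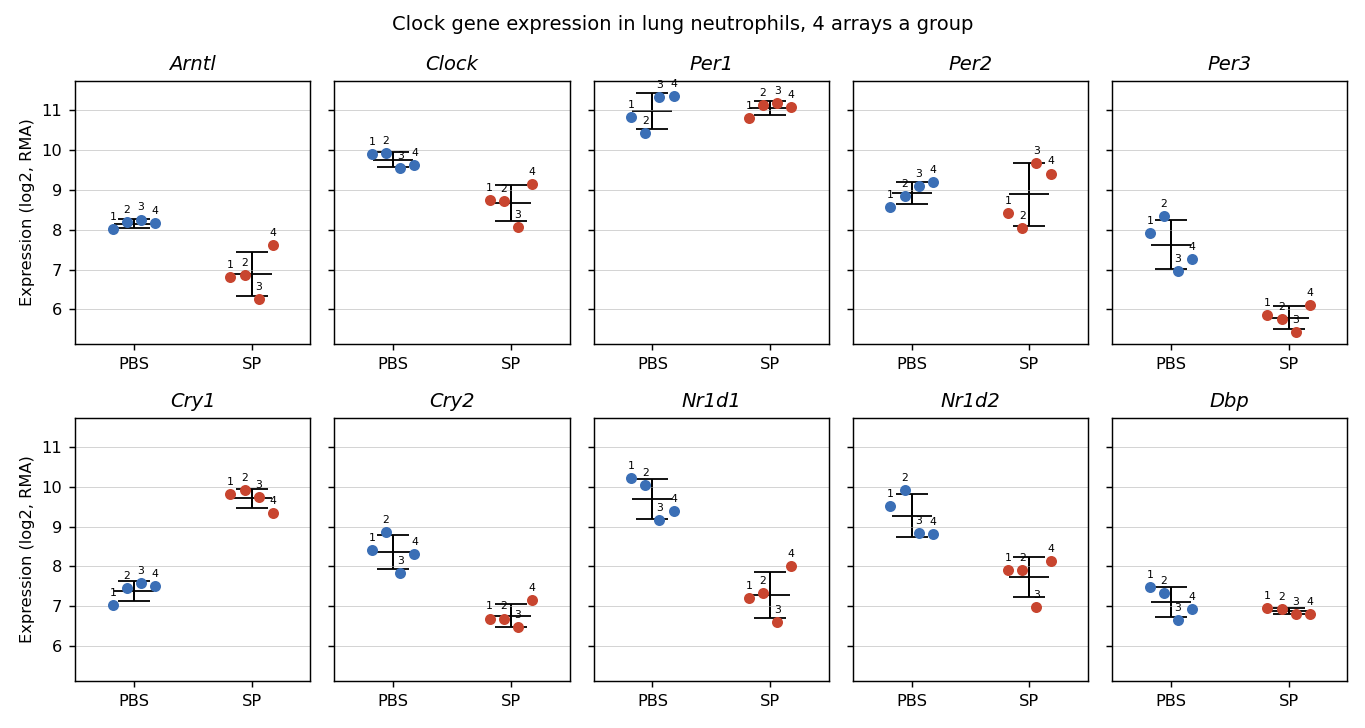
Expression of the 10 clock genes (y axis, log2 after robust multi-array averaging) in 4 PBS (blue) and 4 SP (red) arrays, with small digits giving the replicate number and black bars the mean ± SD of each group (n = 4). Cry1 is the only gene of the 10 whose SP values all lie above its PBS values. For 6 genes all SP values lie below, and the heights of different genes are not comparable because their probes differ.

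The positive arm of the loop was lower in SP. Arntl read 8.01, 8.19, 8.26 and 8.18 in PBS replicates 1 to 4 and 6.82, 6.87, 6.26 and 7.63 in SP replicates 1 to 4. The PBS arrays lay close together, the SP arrays were spread, and even the highest of them, replicate 4, stayed below all PBS arrays. Arntl fell by 1.26 on the log2 scale (95% interval -1.83 to -0.69, limma adjusted p = 0.00419). Clock, which encodes the partner of BMAL1, read 9.89, 9.93, 9.55 and 9.64 with PBS and 8.76, 8.73, 8.06 and 9.14 with SP. Again SP replicate 3 was lowest and SP replicate 4 highest, and the groups did not overlap. Clock fell by 1.08 (interval -1.57 to -0.59, adjusted p = 0.00431). Because whole preparations were measured, fewer cells of a type and less RNA per cell cannot be told apart here or in any result that follows.

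Of the other genes of the positive arm, Npas2, which encodes a protein that can take the place of CLOCK, had a larger difference than either. Npas2 read 8.22, 9.08, 8.76 and 9.04 with PBS and 6.36, 6.15, 6.18 and 6.82 with SP. All SP arrays were well below the lowest PBS array, and the gene fell by 2.40 (interval -2.91 to -1.89, adjusted p = 8.83e-05). Arntl2, a relative of Arntl, was dim in every array, at 4.68 to 4.92 with PBS and 4.77 to 5.12 with SP. Its difference of 0.13 did not pass the test (adjusted p = 0.255), and it turned to -0.0023 after a further quantile normalization of the table and was called at 0.42 with centred arrays.

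The repressors of the loop did not move together. Cry1, a cryptochrome that represses the BMAL1 and CLOCK pair, read 7.03, 7.45, 7.59 and 7.50 with PBS and 9.81, 9.92, 9.75 and 9.35 with SP. Every SP array exceeded every PBS array by more than 1 log2 unit. The rise of 2.32 (interval 1.95 to 2.68, adjusted p = 2.24e-05) had the narrowest interval among the 10 genes. Cry2, the other cryptochrome, went the opposite way, from 8.42, 8.86, 7.83 and 8.32 with PBS to 6.69, 6.69, 6.49 and 7.17 with SP. Its groups did not overlap either, with PBS replicate 3 nearest to the SP values. Cry2 fell by 1.60 (interval -2.11 to -1.08, adjusted p = 0.000762).

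The 3 period genes, whose proteins join the cryptochromes in repression, differed from each other in the same arrays. Per3 read 7.92, 8.34, 6.98 and 7.26 with PBS and 5.87, 5.77, 5.43 and 6.12 with SP. Even the lowest PBS array was above the highest SP array, and Per3 fell by 1.83 (interval -2.51 to -1.15, adjusted p = 0.00155). Per1 read 10.82, 10.43, 11.35 and 11.36 with PBS and 10.80, 11.13, 11.19 and 11.08 with SP. The SP values lay inside the PBS range. The difference of Per1 was 0.06 (interval -0.42 to 0.55, adjusted p = 0.811), so a 2-fold change in either direction lies outside the interval, and its sign turned after a further quantile normalization (-0.14) and when PBS replicate 2 was left out (-0.12), but not with centred arrays (0.34).

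Per2 varied more within the SP group than any other gene of the 10. It read 8.56, 8.84, 9.09 and 9.20 with PBS and 8.42, 8.04, 9.69 and 9.41 with SP. SP replicates 1 and 2 lay below all PBS arrays and SP replicates 3 and 4 above them. The SD was 0.79 in SP and 0.29 in PBS (n = 4 each). Its difference of -0.04 (interval -0.86 to 0.79, adjusted p = 0.938) changed sign under both other scalings and ran from -0.30 to 0.25 when single samples were left out, the ends being without SP replicate 3 and without SP replicate 2.

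The REV-ERB receptors, which repress Arntl and bind heme, were lower in SP. Nr1d1, which encodes REV-ERB alpha, read 10.21, 10.04, 9.16 and 9.40 with PBS and 7.20, 7.34, 6.60 and 8.01 with SP. The groups were separated by more than 1 log2 unit, and Nr1d1 had the largest fall of the 10 genes, by 2.41 (interval -3.17 to -1.65, adjusted p = 0.000649). Nr1d2, which encodes REV-ERB beta, read 9.51, 9.93, 8.83 and 8.82 with PBS and 7.90, 7.91, 6.99 and 8.14 with SP. Its groups did not overlap, although PBS replicates 3 and 4 came within 1 log2 unit of SP replicate 4. Nr1d2 fell by 1.54 (interval -2.28 to -0.80, adjusted p = 0.00557). Arntl, the gene that REV-ERB is known to repress, was lower in the same arrays as both receptors.

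The ROR receptors activate where REV-ERB represses. Rora, which encodes ROR alpha, lay between 7.47 and 8.03 with PBS and between 6.98 and 7.37 with SP. Its fall of 0.61 (adjusted p = 0.01) was not called after a further quantile normalization, where the difference was -0.22 (adjusted p = 0.168). Rorb was dim, at 4.18 to 4.22 with PBS and 4.24 to 4.39 with SP, and did not pass the test (0.12, adjusted p = 0.149, turning to -0.0038 after the quantile normalization). It was called higher with centred arrays (0.40), by the methods' t-test and with an intensity trend.

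Dbp, a D-box activator and a direct target of BMAL1 and CLOCK, was the clock gene with the tightest SP values. It read 7.48, 7.34, 6.65 and 6.94 with PBS and 6.96, 6.93, 6.82 and 6.80 with SP. The SP values sat between the PBS arrays, replicates 1 and 2 above them and replicate 3 below. The difference of -0.23 (interval -0.63 to 0.17, adjusted p = 0.291) did not pass the test, and its sign changed when arrays were centred on their medians (0.05) or normalized by quantiles again (0.22).

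The relatives of Dbp that bind the same sequence were lower in SP. Tef read 8.18, 8.14, 7.13 and 7.36 with PBS and 6.45, 6.55, 5.95 and 6.39 with SP, and fell by 1.37 (adjusted p = 0.00341). Hlf read 7.13, 6.49, 6.81 and 6.44 with PBS and 5.65, 5.52, 5.90 and 5.78 with SP, and fell by 1.003 (adjusted p = 0.00159). Neither gene had overlapping groups. Nfil3, which encodes the repressor that competes with them at D-boxes, read 10.57, 9.73, 11.47 and 11.46 with PBS and 11.03, 11.19, 11.49 and 11.25 with SP. The PBS arrays spanned the SP arrays, and the difference of 0.43 did not pass the test (adjusted p = 0.338).

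Among the 4 other repressors of the loop, 3 were called higher. Of these, Timeless was dim, its groups overlapped and its call was easily lost. Bhlhe40, which encodes DEC1, a repressor that competes with BMAL1 and CLOCK at E-boxes, read 9.37, 8.69, 9.04 and 9.23 with PBS and 12.21, 12.15, 12.26 and 12.08 with SP. The SP arrays were nearly level with each other, and the rise of 3.09 (interval 2.77 to 3.42, adjusted p = 4.12e-06) exceeded that of Cry1. Ciart, which encodes CHRONO, a further repressor of BMAL1, read 7.52, 7.79, 7.42 and 7.48 with PBS and 9.24, 9.44, 9.04 and 8.65 with SP, and rose by 1.54 (adjusted p = 0.000207). Both genes shared with Cry1 a rise without overlap. Timeless, with a role in DNA replication, rose by 0.46 (adjusted p = 0.0276) from values of 4.55 to 4.95, a call that was lost if SP replicate 2, 3 or 4, or PBS replicate 1, 3 or 4, was omitted (0.40 to 0.48), with the replicate block and after quantile normalization (0.37), and Bhlhe41, which encodes DEC2, differed by -0.50 without passing the test (adjusted p = 0.128, and 0.0138 with the replicate block).

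**Figure D2:**
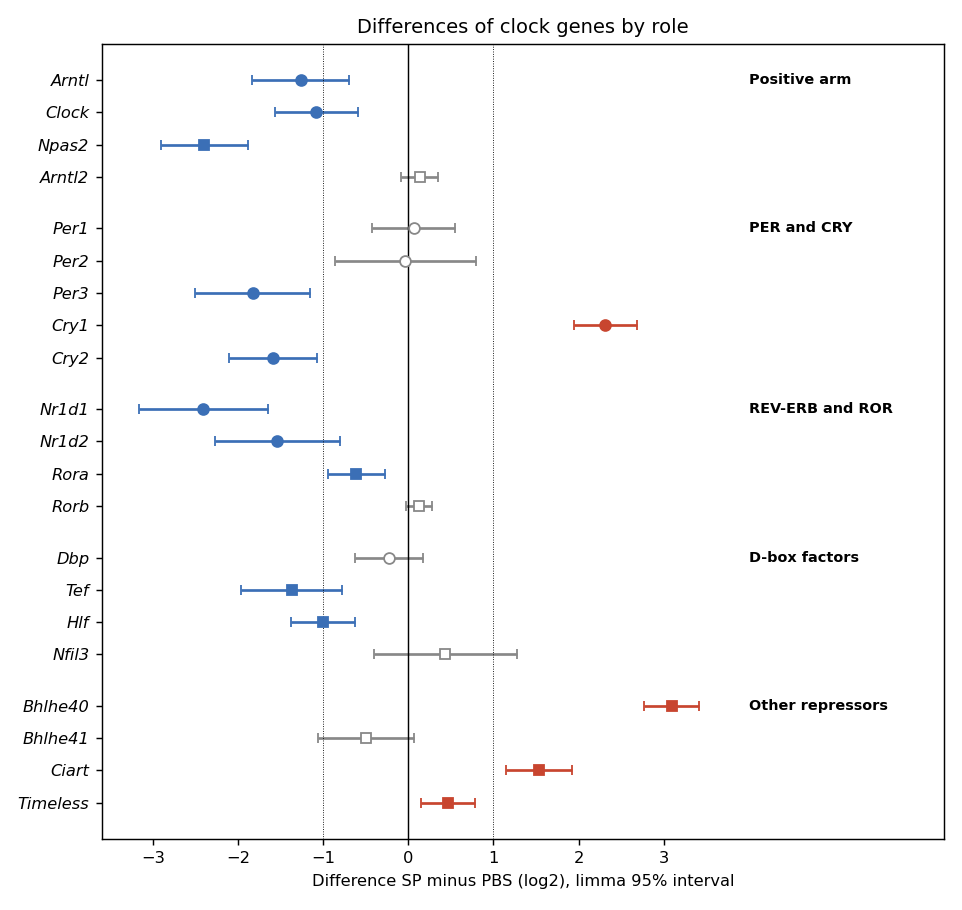
Difference between SP and PBS (x axis, log2, n = 4 arrays a group) with its limma 95% interval for the 10 clock genes (circles) and 11 related genes (squares), grouped by role. Red and blue filled symbols are genes called higher and lower at an adjusted p of 0.05 or below, open grey symbols are not called, and dotted lines mark 2-fold. Cry1 at 2.32 stands on the side of Bhlhe40 and Ciart, apart from Cry2 at -1.60 and Per3 at -1.83.

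Genes that act on clock proteins after translation were mixed. Of 12 kinases, ubiquitin ligases and other modifiers, 4 rose, 2 fell and 6 did not pass the test, with a median difference of -0.08. Among all rows, 21.5% were called higher and 22.6% lower. Usp2, a deubiquitinase of clock proteins and itself a rhythmic gene, read 7.63, 7.64, 7.72 and 7.94 with PBS and 9.61, 9.87, 8.77 and 9.04 with SP, and rose by 1.59 (adjusted p = 0.000887). Sirt1, a deacetylase that acts on BMAL1 and PER2, read 8.85, 9.03, 9.01 and 8.83 with PBS and 10.18, 10.21, 9.95 and 9.84 with SP, and rose by 1.12 (adjusted p = 9.72e-05). Both had every SP array above every PBS array. The other calls were below 2-fold. Fbxw11 (0.46) and Csnk1d (0.23) rose, and Btrc (-0.67) and Csnk2a1 (-0.42) fell. The call of Csnk1d was lost if SP replicate 1, 2 or 4, or PBS replicate 1, 2 or 3, was omitted (0.18 to 0.24), with SP replicate 3 and PBS replicate 2 both left out, with an intensity trend, the replicate block or dim rows left out, and after quantile normalization (0.031, adjusted p = 0.766). That of Csnk2a1 was lost without PBS replicates 1 or 2 or SP replicate 1 (-0.42 to -0.34) and with centred arrays (-0.14, adjusted p = 0.273).

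Of 8 genes known as outputs of the clock, 4 rose, 1 fell and 3 did not pass the test, with a median difference of 0.51. Lonrf3 rose by 2.88 (adjusted p = 1.43e-05), from 6.84 to 7.14 with PBS to 9.49 to 10.24 with SP. Klf10, which encodes a transcription factor, rose by 1.83 (adjusted p = 1.38e-05), and Nampt, which encodes the rate-limiting enzyme of NAD salvage, rose by 1.60 (adjusted p = 5.79e-05). In all 3 genes the groups did not overlap. The remaining calls were Tsc22d3 (0.73) upward and Wee1 (-0.69) downward, the latter lost if SP replicate 1, 2 or 3, or PBS replicate 1 or 4, was omitted (-0.71 to -0.57), with SP replicate 3 and PBS replicate 2 both left out (-0.66), by the methods' t-test, with the replicate block, with centred arrays (-0.41) and after quantile normalization (-0.28). Over the 32 genes of the machinery and its outputs other than the 10 clock genes, 11 rose, 8 fell and 13 did not pass the test. Their median was 0.13, beside 0.10 for all rows, of which 21.5% were called higher and 22.6% lower.

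**Figure D3:**
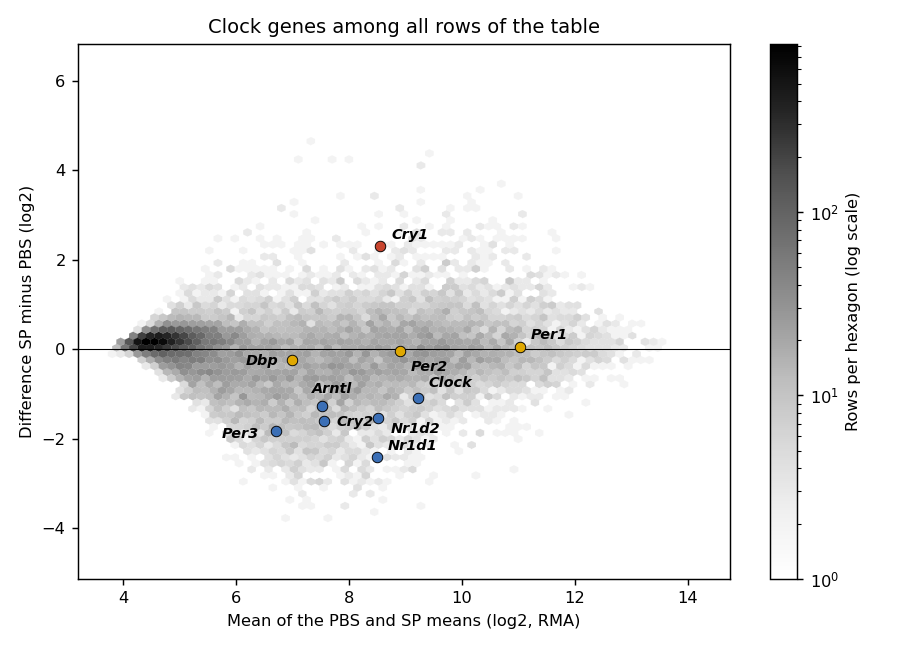
All 24625 rows by the average of their PBS and SP means (x axis, log2) and their difference between SP and PBS (y axis, log2), drawn as hexagons whose grey shade is the number of rows on a log scale. The clock genes are coloured points, red where called higher, blue where called lower and yellow where not called. Cry1 lies at 2.32 and Nr1d1 at -2.41, while Per1, Per2 and Dbp lie within 0.23 of 0.

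The clock genes were also ordered alike among arrays of the same group. All 6 genes that fell had their highest SP value in replicate 4 and their lowest in replicate 3, an order that Per1, Per2, Cry1 and Dbp did not have. In the PBS group, Per3, Cry2, Clock, Nr1d1, Nr1d2 and Dbp were higher in replicates 1 and 2 than in replicates 3 and 4, by a gap between the pairs of 0.10 for Cry2 and 0.68 for Nr1d2. Per1, Per2 and Cry1 had the reverse order there, with gaps of 0.52, 0.25 and 0.05. Arntl had neither order. Tef followed the order of Nr1d1 in PBS (gap of 0.77), and Nfil3 that of Per1 (0.89). The medians of whole arrays had the same orders as the genes that fell. In SP the median was highest in replicate 4 (5.914) and lowest in replicate 3 (5.785). In PBS it was 6.189 and 6.196 in replicates 1 and 2, and 6.06 and 6.093 in replicates 3 and 4. The share of all rows with these orders was not counted, and their source was not tested.

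Markers of other lung cells had falls of the same kind in these preparations. The marker lists were chosen with earlier results of these data known. Among all rows, 22.6% were called lower and 21.5% higher. Of 8 markers of alveolar type 2 cells all 8 were called lower, as were 10 of 10 of ciliated epithelium, 6 of 6 of club cells, 5 of 6 of alveolar type 1 cells, 8 of 9 of endothelium, 3 of 7 of fibroblasts, 3 of 6 of alveolar macrophages (with 1 higher) and 5 of 5 of B cells. The mean of the endothelial list lay between 10.32 and 11.32 in PBS and between 8.60 and 9.81 in SP. For ciliated epithelium the ranges were 9.16 to 9.99 and 6.44 to 7.12. Neither list had overlapping groups, and the same held for the epithelial lists. The club cell mean lay between 12.16 and 12.57 in PBS and between 9.85 and 10.68 in SP, the type 2 mean between 12.30 and 12.77 and between 10.34 and 11.77, and the type 1 mean between 9.29 and 10.38 and between 7.89 and 8.82. Lists of other cells were less uniform. Fibroblast means overlapped between groups (8.86 to 9.66 and 7.62 to 9.68), and those of alveolar macrophages (8.86 to 9.51 and 8.12 to 8.50) and B cells (8.10 to 9.07 and 6.03 to 7.37) did not. Markers of monocytes and macrophages were called higher in 3 of 6 cases (means 8.32 to 9.12 and 8.71 to 10.03), and those of T cells in 1 of 5 (5.31 to 5.89 and 5.45 to 6.48). The neutrophil list had 0 of 10 markers called higher and 2 lower, and its means overlapped, at 12.15 to 12.40 in PBS and 11.65 to 12.79 in SP, although Ly6g itself had no matched row.

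The order among arrays was shared as well. Of the 11 marker lists, 7 had their highest SP mean in replicate 4 and their lowest in replicate 3, and 6 were higher in PBS replicates 1 and 2 than in 3 and 4. The lists with both orders were those of club, type 2 and type 1 cells, endothelium, fibroblasts and alveolar macrophages. The part of these cells in the falls of Arntl, Clock, Per3, Cry2, Nr1d1 and Nr1d2 was not tested. Without SP replicate 3 and PBS replicate 2, the arrays of lowest weight in their groups, these 6 genes were still called lower and Cry1 higher, with Nr1d1 at -2.07, Nr1d2 at -1.07, Per3 at -1.47 and 5 of the 6 falls at 2-fold or more.

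**Figure D4:**
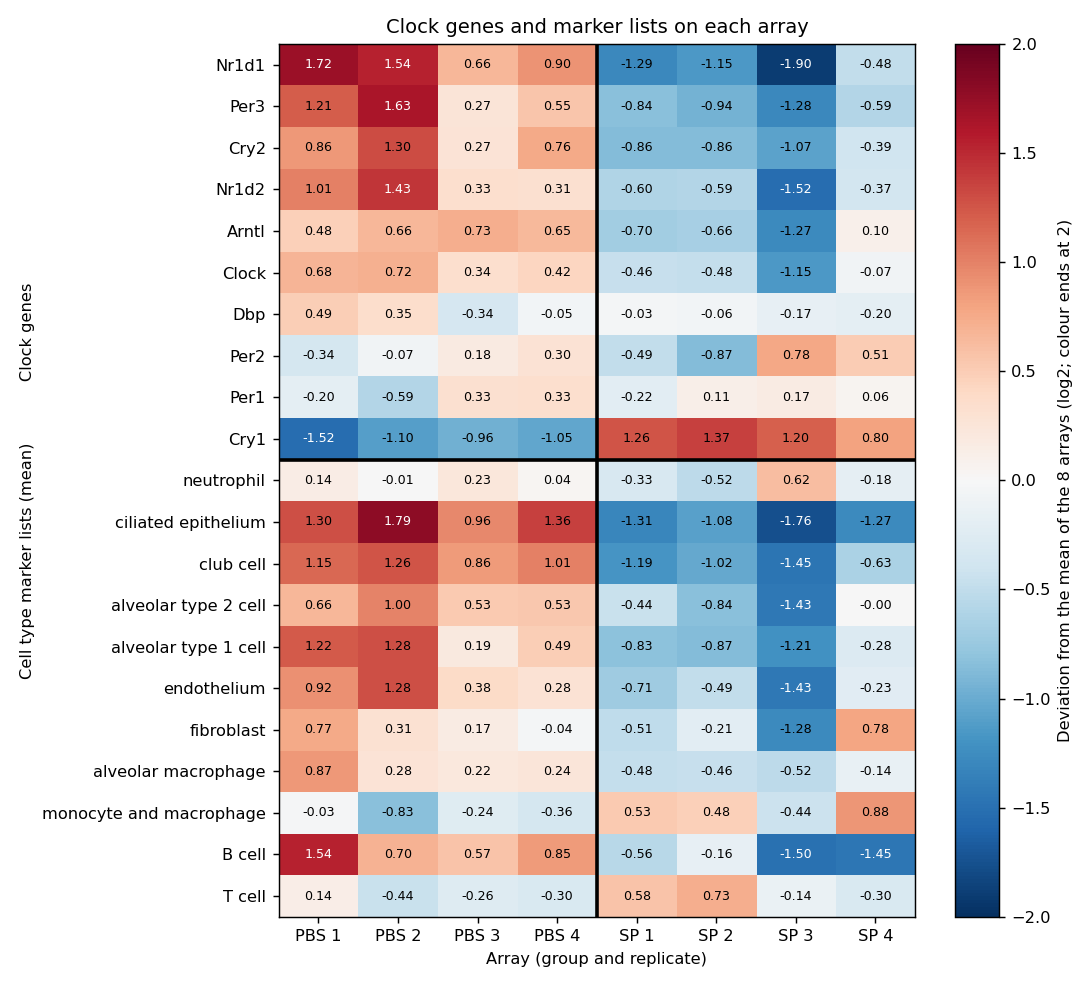
Deviation of each array (columns) from the mean of all 8 arrays (log2, colour and printed digits, colour ending at 2) for the 10 clock genes (above the line) and the mean of each of 11 cell type marker lists (below it). SP replicate 3 has the lowest and SP replicate 4 the highest SP value for the 6 clock genes that fell and for 7 marker lists, and Cry1 alone of the clock genes is below its mean in all PBS and above it in all SP arrays.

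Genes with a profile most like that of Cry1 and of Nr1d1 were looked up among all rows with a symbol. Likeness was the mean absolute difference between the log2 profiles over the 8 arrays after subtraction of each gene's own mean. For Cry1 these were Traf3 (0.0785), Tent5a (0.124) and Ptpn23 (0.131), with rises of 2.34, 2.33 and 2.19. For Nr1d1 they were Gstk1 (0.1085), Clic3 (0.121) and Lmo7 (0.123), with falls of -2.47, -2.63 and -2.42. Since the difference between groups makes up most of each profile, the measure mainly picks genes of equal difference.

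**Figure D5:**
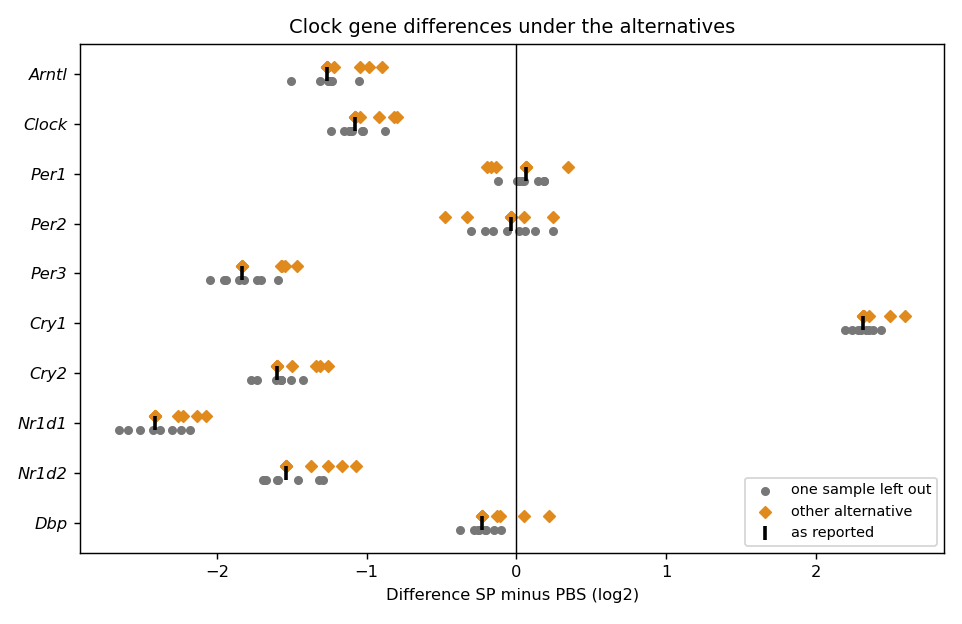
Difference between SP and PBS (x axis, log2) of each clock gene as reported (black bar), with 1 of the 8 samples left out at a time (grey points) and under the other alternatives (orange diamonds). The 7 called genes keep their direction in all 16 alternatives, with Nr1d1 between -2.65 and -2.07 and Cry1 between 2.19 and 2.60, while Per1, Per2 and Dbp fall on both sides of 0.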

How the data were processed

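RNA of Ly6G-selected lung neutrophils was measured on 8 arrays, 4 PBS and 4 SP, grouped by the sample titles. The deposited values are log2 intensities. Per the study's methods, the authors made them by robust multi-array averaging (background and probe sequence corrections, quantile normalization and a median polish that joins the probes of a gene). The submitters' processing notes name Affymetrix Expression Console, RMA and Partek. The values are relative within an array, so a change in total RNA per cell cannot be read from them, and very bright probes may read too low. Array medians were 6.06 to 6.20 in PBS and 5.79 to 5.91 in SP, and arrays of a group correlated at 0.970 to 0.997 across rows. The number of arrays limits the precision. The labels do not say that replicates were separate litters or days, and p-values measure the spread between these samples.

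Row accessions were matched without versions to RefSeq genes (GRCm38.p6), which named 19915 of 24625 rows (80.9%). No build is attached to the values, and coordinates belong to the RefSeq promoter table only. SP and PBS were compared by limma 3.58.1 (R 4.3.3, lmFit and eBayes, two-sided, no covariate), p-values being adjusted by Benjamini-Hochberg across the whole table, after the code had been tested on simulated data. The microRNA arrays were not analysed here. Promoters and plots were handled in Python 3.11.15.

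The clock genes, pathway lists and marker lists were chosen with earlier results of these data known. All 10 clock genes are named. Some genes of the pathway lists are counted but not reported here. Of a pathway list, genes called at 2-fold are named and, where fewer than 2 were, the 2 of highest mean. Rorb, Nfil3, Bhlhe41, Timeless and calls below 2-fold were named after their values had been seen. The 3 nearest profiles were taken for the largest called rise and fall.

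The alternatives comprised array weights, quantile normalization, an intensity trend with robust prior, the methods' t-test (ANOVA with 1 factor), centring of each array on its median, a block for replicate number, rows below the median mean left out, each sample left out and, chosen after seeing the data, SP replicate 3 and PBS replicate 2 both left out. Single samples far from their group were sought by Dixon's ratio (critical value 0.829) in 20 groups of 4, and 0 were found.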

Additional observations from a re-analysis of the deposited data

How the results depend on the processing

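All 7 called clock genes kept their call and direction under all 16 alternatives, with a highest adjusted p of 0.0221 for Nr1d2 by the methods' t-test. The counts of 6 lower and 1 higher were the same throughout, and the count at 2-fold or more lower went from 6 to 5 with array weights, quantile normalization, without SP replicate 3 or with SP replicate 3 and PBS replicate 2 both left out, and to 4 with centred arrays. Centring moved the median difference of all rows by 0.28 and the quantile normalization by -0.087, and Arntl was -0.90 under the latter and Clock -0.80 under the former. Rows called higher numbered 5306 as reported, 14219 with centred arrays and 2971 with dim rows left out, in which fewer rows were tested. With centred arrays 4036 rows were called lower, against 5554. Leaving out 1 sample gave 3528 (without PBS replicate 1) to 5301 rows called higher. With the replicate block 4477 rows were called higher and 5365 lower. The replicate numbers were not shown to pair the samples. Deviations of same-numbered samples correlated at 0.0156, 0.0304, 0.35 and -0.274, which cannot tell whether some samples shared a day or batch.

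Uncalled differences of genes named here changed sign as follows, and the cause was not tested. With array weights, Per1 was -0.20. With centred arrays, Per2 was 0.25, Dbp 0.053 and Cxcr2 0.037. After quantile normalization, Per1 was -0.14, Per2 0.052, Dbp 0.22, Arntl2 -0.0023 and Rorb -0.0038. With SP replicate 3 and PBS replicate 2 both left out, Per1 was -0.17 and Nfil3 -0.011. With single samples left out, Per1 ran from -0.12 to 0.18 and Per2 from -0.30 to 0.25. Over the 52 pathway genes, 712 of 828 recomputed values kept direction and call, 66 lost the call, 29 gained it and 21 changed sign.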

Other observations

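Genes that the clock is known to restrain or to time outside its own loop were counted too. Of all rows, 21.5% were called higher and 22.6% lower. Of 7 inflammatory genes reported as targets of REV-ERB or BMAL1 in myeloid or club cells, 4 rose, 1 fell and 2 did not pass the test, with a median difference of 1.65. Il6 rose by 4.13 (limma adjusted p = 6.68e-05) and Ccl2, a monocyte chemokine, by 4.03 (adjusted p = 0.000111). Cxcl5, a neutrophil chemokine, rose by 2.11 (adjusted p = 0.000199), and Nlrp3, the sensor of an inflammasome, by 1.65 (adjusted p = 0.0146). In all 4 the SP arrays lay above the PBS arrays. Mmp9, which is also in the neutrophil list, fell by 0.59 (adjusted p = 0.0238), a call lost if SP replicate 1 or 2, or PBS replicate 3 or 4, was omitted (-0.56 to -0.48) and with centred arrays (-0.31, adjusted p = 0.167).

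Of 7 genes of neutrophil ageing, 4 rose and 3 did not pass the test, with a median of 0.57. Icam1, an adhesion molecule, rose by 1.96 (adjusted p = 1.53e-05) and Tlr4, the receptor for endotoxin, by 1.51 (adjusted p = 0.000717). The remaining calls were Cxcl2 (0.57) and Itgam (0.32). That of Cxcl2 was lost without PBS replicate 1 or any 1 SP replicate (0.51 to 0.62) and by the methods' t-test. That of Itgam was lost without any 1 sample other than PBS replicate 3 (0.24 to 0.34). It was also lost with SP replicate 3 and PBS replicate 2 both left out and by the methods' t-test. The replicate block, dim rows left out and quantile normalization (0.11, limma adjusted p = 0.286) lost it too. The chemokine receptors used to follow ageing did not pass the test, with Cxcr4 at 0.60 (adjusted p = 0.137) and Cxcr2 at -0.24 (adjusted p = 0.0562). Cxcr2 was above 0 with centred arrays (0.037), whereas it was called lower without PBS replicate 2 (-0.29) or SP replicate 3 (-0.28), with both left out (-0.33), with array weights (-0.29) and after quantile normalization (-0.40, adjusted p = 0.00173). Cxcr4 was called higher with centred arrays (0.88), with array weights (0.55) and with SP replicate 3 and PBS replicate 2 both left out (0.49).

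Glucocorticoids are known to reset clocks and to induce Per1 directly. Of 8 genes of the glucocorticoid response, of which Tsc22d3 and Klf9 are also in the output list, 4 rose and 4 did not pass the test, with a median of 0.33. Fkbp5, a chaperone of the glucocorticoid receptor, rose by 2.00 (adjusted p = 4.17e-05), from 7.27 to 7.72 with PBS to 9.21 to 9.77 with SP. Nr3c1, which encodes the receptor, rose by 0.51 (adjusted p = 0.0393), a call lost without any 1 sample other than PBS replicate 3 or SP replicate 4 (0.38 to 0.55), with SP replicate 3 and PBS replicate 2 both left out (0.27), by the methods' t-test (adjusted p = 0.0706) and after quantile normalization (0.32, adjusted p = 0.105). Dusp1 differed by 0.15 (adjusted p = 0.19) and was called higher with centred arrays (0.43). Sgk1 rose by 0.97 (limma adjusted p = 0.000137) without overlap of the groups, and kept its call in all 16 alternatives.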
